A study of Mus musculus with 6 samples.

Results

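Proteasome subunit genes were followed in the hippocampus of mice given the antidepressant venlafaxine, an inhibitor of serotonin and noradrenaline reuptake. The set was chosen by name, as the genes whose array annotation is a single symbol of the families Psma, Psmb, Psmc, Psmd or Psme with a number. It holds 42 of the 18193 genes with a probe set of their own, namely 8 Psma, 11 Psmb, 6 Psmc, 14 Psmd and 3 Psme genes, read by 88 probe sets. The highest-mean probe set stood for each gene. Psme2 is not among them because its probe set carries 2 symbols.

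The mice were male DBA/2 animals that drank venlafaxine at 0 (control), 30 (low dose) or 100 (high dose) mg per kg body weight per day for 30 days, with 10 animals in a dose group, singly housed. Their age is not given in the sources used here. Each dose group gave 1 left and 1 right pool, and every pool went onto an Affymetrix array of its own, 6 arrays in all. Replicate 2 of the controls and of the high dose was hybridized on a later date than the other 4 arrays. The right pools were replicate 1 of the controls and of the low dose, and replicate 2 of the high dose. The labels do not state whether left and right pools share animals, so the spread behind each p-value is that between pools and may be technical. Precision is limited by having 2 arrays in a group. In pooled tissue, fewer cells of a type and less RNA per cell cannot be told apart.

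The proteasome is the protease complex that degrades proteins tagged with ubiquitin. Its barrel-shaped core has outer alpha rings (Psma genes), which form the gate, and inner beta rings (Psmb genes), which hold the catalytic sites. A regulatory particle caps the core, and its base, with a ring of ATPases (Psmc genes), unfolds the substrate. Further non-ATPase subunits (most Psmd genes), among them those of the lid, bind and remove ubiquitin, while activators (Psme genes) can open the gate without it. In the hippocampus, protein breakdown by the proteasome takes part in the remodelling of synapses and in memory.

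Across the 6 arrays the set was nearly flat. Of the 42 genes, 40 exceeded the array median on 2 or more arrays and were tested. The exceptions were Psma8, a testis form of an alpha subunit, and Psmb11, the beta subunit of the thymus, which lay below the array median on all 6 arrays. The range of a tested proteasome gene over the 6 arrays had a median of 0.218 on the log2 scale, against 0.246 for all 11743 genes tested. It ran from 0.0955 for Psmb8, whose mean log2 level of 8.01 was just above the array medians, to 0.87 for Psmb7. Low dose replicate 2 was the highest array for 28 of the 40 genes and low dose replicate 1 the lowest for 17. Over all genes tested, low dose replicate 2 was the highest for 45.3% and low dose replicate 1 the lowest for 15.3%. Array medians were 7.79 or 7.80, whereas the 95th percentile, near which many proteasome genes lie, ran from 11.45 to 11.64 and was highest on low dose replicate 2.

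**Figure D1:**
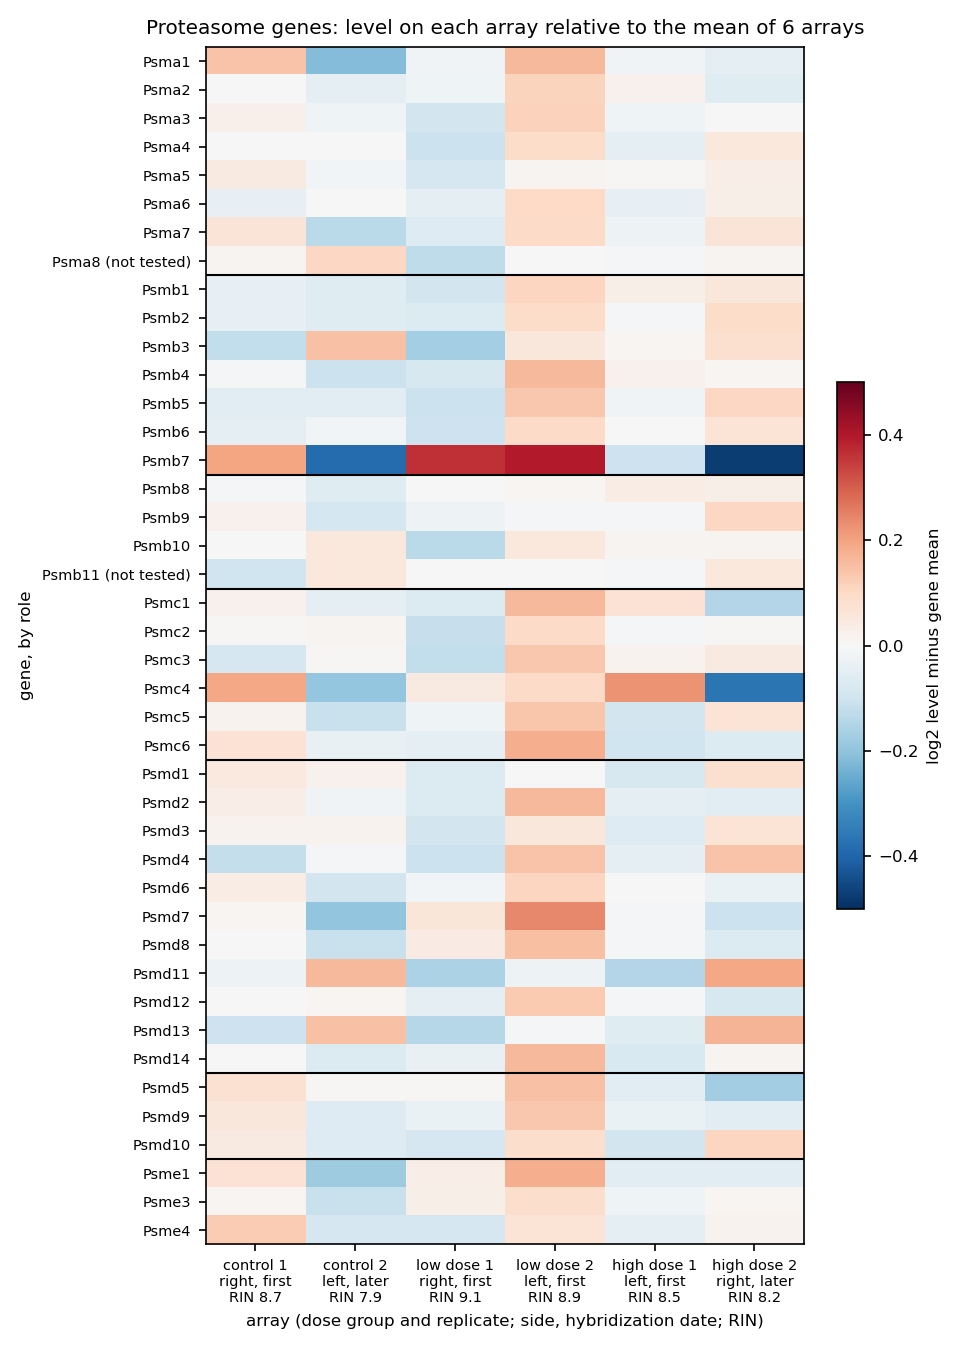
Log2 level of each of the 42 proteasome genes on each of the 6 arrays, minus the gene's mean over the arrays; rows are grouped by role and columns by dose. Most rows stay pale, low dose replicate 2 is the highest array for 28 of the 40 tested genes, and Psmb7 and Psmc4 are lowest on both arrays of the later date.

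All 10 fixed markers of hippocampal fields, among them Prox1 of the dentate gyrus, and all 11 fixed neuron markers passed the same filter. The RNA integrity number (RIN) of the pools was 8.7 and 7.9 in the controls, 9.1 and 8.9 at the low dose and 8.5 and 8.2 at the high dose, so the 2 arrays of the later date also had the lowest RIN. Date and RIN therefore cannot be told apart between these arrays.

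The first comparison asked whether the high dose changed proteasome genes relative to no drug. None did: 0 of 40 passed in limma after adjustment over all genes (0.00852% of all genes tested passed), and 0 had an unadjusted p under 0.05, against 2.76% of all genes. The median log2 fold change of the set was 0.0054, with 23 genes higher and 17 lower. That of all genes tested was -0.03. The change was smaller than 0.1 log2 in 37 of 40 genes, or 92.5%, and in 72.2% of all genes. Standard errors of single genes ran from 0.10 to 0.14 log2. Markers of neighbouring tissue differed more: all 10 choroid plexus markers were higher at the high dose (median 0.22), and all 7 tested neocortex and all 6 tested striatum markers were lower (medians -0.28 and -0.33), with 0 past the threshold. With the date as a block, 2 neocortex and 2 striatum markers passed. Their part in the values of the set was not tested.

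The core beta genes lay slightly higher at the high dose. Psmb5, which carries the chymotrypsin-like site, measured 12.21 and 12.21 on the control arrays and 12.25 and 12.37 on the high dose arrays. Its log2 fold change was 0.09 (SE 0.11, limma adjusted p = 1). Psmb1, a non-catalytic beta subunit, measured 12.29 and 12.27 in the controls and 12.36 and 12.39 at the high dose. Both high dose arrays lay above both controls in 5 of the 7 beta genes, namely Psmb1, Psmb2, Psmb4, Psmb5 and Psmb6, the last being the caspase-like subunit. Of the whole set 7 genes were apart in that direction and 5 in the other, against 8.03% and 18.7% of all genes tested (26.7% in either direction). The median of the beta genes was 0.08, and it was 0.04 within the first date and 0.12 within the later one. Each of these fold changes was smaller than its standard error, and no beta gene passed. The other probe set of Psmb4 had -0.01 at the high dose. At the low dose 6 of the 7 beta genes were also higher than in the controls, with a median of 0.06. Of all genes tested 67.6% were higher at that dose, with a median of 0.04. The low dose arrays lay on either side of the controls. Relative to each gene's mean over the arrays, the median of the beta genes was 0.10 on low dose replicate 2. It was -0.09 on low dose replicate 1, below the -0.04 and -0.06 of control replicates 1 and 2.

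Psmb7, the trypsin-like catalytic subunit, was the beta gene that went the other way. It measured 10.09 and 9.51 on the control arrays, 10.26 and 10.29 on the low dose arrays, and 9.79 and 9.42 on the high dose arrays. The high dose and control arrays overlap, since control replicate 2 lies between the high dose arrays. The log2 fold change at the high dose was -0.20 (SE 0.14, limma adjusted p = 1), with -0.30 within the first date and -0.09 within the later one. Left pools alone gave 0.28 and right pools -0.67. The sign rests on the controls: without control replicate 1 the value was 0.096 (limma adjusted p = 1), and without control replicate 2 it was -0.487 (limma adjusted p = 0.0118). Over all alternatives of this difference the limma adjusted p ran from 0.0118 to 1.

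For the promoters, RefSeq windows of 250 bases before an annotated start were available for 35 of the 42 genes (build GRCm38.p6). Those of Psma3 and Psmd2, and a further window of Psma6 and of Psmc2, lay inside the gene and held no bases before it. Windows are shown for 4 of the 5 members that hold the binding motif of Nfe2l1. That factor is known to raise proteasome genes together when proteasome activity is low. The motif searched was the antioxidant response element TGACNNNGC, on both strands, together with the interferon-stimulated response element, which is GAAA, any 2 bases and GAAA, on both strands. The only window with both is that of Psmd9, where they do not overlap. The antioxidant motif stood in 5 of 37 windows of the set (Psmb5, Psmb6, Psmc6, Psmd9 and Psmd12) and in 10.2% of all 32851 windows of that length. The window of Psmb6 is not shown, because its match lies among the 33 bases that were left out as inside a gene. All motif counts given here are of whole windows, before such bases were left out. The interferon motif stood in 3 of 37 (Psmb3, Psmd4 and Psmd9) and in 2.98% of all windows. Capitals mark the motifs, which are letter matches and not measured binding, and Psmc4, which changed between the dates, is shown beside them as a window without either. Genes with no window in the table were Psma8, Psmb1, Psmb2, Psmb7, Psmc3, Psmd3 and Psmd7.
Psmb5, chr14:54617996-54618245, minus strand: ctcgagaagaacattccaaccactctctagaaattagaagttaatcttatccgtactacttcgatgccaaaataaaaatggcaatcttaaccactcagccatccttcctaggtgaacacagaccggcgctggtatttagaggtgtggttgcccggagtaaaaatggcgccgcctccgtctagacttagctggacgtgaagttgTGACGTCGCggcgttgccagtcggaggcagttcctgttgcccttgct
Psmc6, chr14:45329574-45329822, plus strand: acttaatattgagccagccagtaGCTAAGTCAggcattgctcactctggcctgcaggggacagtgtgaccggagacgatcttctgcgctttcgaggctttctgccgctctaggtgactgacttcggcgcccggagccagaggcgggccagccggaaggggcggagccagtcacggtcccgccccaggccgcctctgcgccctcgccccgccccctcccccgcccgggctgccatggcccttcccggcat
Psmd9, chr5:123227940-123228189, plus strand: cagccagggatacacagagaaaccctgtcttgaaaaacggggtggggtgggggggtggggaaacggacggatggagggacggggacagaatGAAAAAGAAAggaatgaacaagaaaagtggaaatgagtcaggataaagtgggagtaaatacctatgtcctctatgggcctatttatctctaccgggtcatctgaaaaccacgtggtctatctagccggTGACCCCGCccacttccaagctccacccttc
Psmd12, chr11:107479278-107479527, plus strand: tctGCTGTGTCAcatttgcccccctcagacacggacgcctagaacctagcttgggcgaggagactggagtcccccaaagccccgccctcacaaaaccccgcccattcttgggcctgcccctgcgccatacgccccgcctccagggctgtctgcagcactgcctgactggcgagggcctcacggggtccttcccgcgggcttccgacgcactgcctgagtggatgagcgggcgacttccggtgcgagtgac
Psmc4, chr7:28050093-28050342, minus strand: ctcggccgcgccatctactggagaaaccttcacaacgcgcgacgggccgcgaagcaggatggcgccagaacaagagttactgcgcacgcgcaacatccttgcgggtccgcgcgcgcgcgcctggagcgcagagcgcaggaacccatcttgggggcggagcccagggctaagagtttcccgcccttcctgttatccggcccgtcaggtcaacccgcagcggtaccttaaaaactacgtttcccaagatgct

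Among the genes of these windows, Psmc6 had a log2 fold change of -0.10 at the high dose and Psmd12 lay below both controls, while Psmb5 lay above them. Nfe2l1 itself had -0.05 and its relative Nfe2l2 -0.09, and none of the 13 tested proteasome regulators and bound factors passed in any comparison between dose groups.

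The immunoproteasome genes Psmb8, Psmb9 and Psmb10, whose products replace the standard catalytic subunits after interferon, had ranges of 0.10, 0.19 and 0.19 over the 6 arrays. The levels of Psmb8 and Psmb9 were just above the array medians. Psmb8 measured 8.00 and 7.95 in the controls, 8.01 and 8.02 at the low dose and 8.05 and 8.04 at the high dose. Its log2 fold change at the high dose was 0.07 (SE 0.10), that of Psmb9 0.08 and that of Psmb10 -0.0147, with a limma adjusted p of 1 for each. The interferon response and antigen processing list also held no gene that passed: 10 of its 15 tested genes were higher and 5 lower, and the median was 0.04. The mean level of the 10 tested microglia markers lay between 9.37 and 9.54 on the 6 arrays.

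The ATPases of the base showed 2 higher and 4 lower genes, with a median of -0.02. Psmc6 was below both controls on both high dose arrays, with a log2 fold change of -0.10 (SE 0.11). Psmc1 had -0.02. Among the 11 non-ATPase subunits, 5 were higher and 6 lower. Psmd4, a ubiquitin receptor, had the highest value of the set, 0.11 (SE 0.11), with 11.88 and 12.07 at the high dose and 11.81 and 11.92 in the controls, which overlap. Psmd14, the enzyme that cuts ubiquitin off the substrate, had -0.0025.

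Psmd5, Psmd9 and Psmd10 share the Psmd name but are chaperones that help to assemble the base. Psmd5 measured 9.81 and 9.74 in the controls and 9.68 and 9.56 at the high dose, so that the groups do not overlap, and its log2 fold change was -0.15 (SE 0.10, limma adjusted p = 1). The activators Psme1, partner of Psme2, Psme3 of the nucleus and Psme4 had -0.0055, 0.04 and -0.03. The 5 tested assembly factors outside the set ran from -0.06 for Psmg2 to 0.12 for Psmg4.

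The second comparison asked what the low dose did. Again 0 of 40 genes passed in limma (0.0426% of all genes tested did, 0.00852% as higher and 0.0341% as lower), and 2 had an unadjusted p under 0.05, Psmb7 and Psmd7, or 5% of the set against 3.32% of all genes. The set lay slightly higher, with a median of 0.05, 30 genes higher and 10 lower. All genes tested had a median of 0.04 with 67.6% higher. The 2 low dose arrays differed: the median of the set was -0.041 without low dose replicate 2 and 0.131 without low dose replicate 1, so its sign rests on 1 array. Against the control of the same side the set's median was 0.15 on the left, where low dose replicate 2 is, and -0.05 on the right.

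For Psmb7 both low dose arrays, at 10.26 and 10.29, lay above both controls, at 10.09 and 9.51. Its log2 fold change was 0.48 (SE 0.14, limma unadjusted p = 0.00251, adjusted p = 1), or 1.39-fold. The difference was 0.18 against the control of the first date, the date on which both low dose arrays were hybridized. With the date as a term it was 0.24 (limma adjusted p = 1), and with RIN as a covariate -0.044. Without control replicate 1 the log2 fold change was 0.767, and without control replicate 2 it was 0.183. High dose arrays do not enter this difference. Without high dose replicate 1 or 2 the value was therefore 0.475 by construction, and only its spread could change. Over all alternatives the log2 fold change ran from -0.044 to 0.767, and in some of them the gene passed. All 9 tested oligodendrocyte markers (median 0.31), all 10 choroid plexus markers (median 0.30) and all 11 neuron markers (median 0.11) were also higher at the low dose, and all 7 neocortex markers were lower (median -0.18). None of these passed, but with the date as a block 2 choroid plexus and 4 neocortex markers did. Their part in the Psmb7 value was not tested.

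Psmd7, a scaffold partner of Psmd14 in the lid, measured 10.20 and 10.38 at the low dose and 10.15 and 9.94 in the controls. The groups do not overlap, and the log2 fold change was 0.25 (SE 0.11, limma adjusted p = 1). Its other probe set that passed the filter had -0.06. Next came the activator gene Psme1 at 0.16. At the other end were Psmd11, a lid subunit, at -0.17, Psmd13 at -0.10 and Psmd1 at -0.07. In all, 5 members stood apart above the controls and 2 below, against 13.4% and 7.78% of all genes (21.2% in either direction). The catalytic genes Psmb5 and Psmb6 had 0.07 and 0.03, Psmb8 0.04, Psmb9 0.01 and Psmb10 -0.07, and Psmc1 0.06. Psmd4 and Psmd14 had 0.08 and 0.09, Psme3 0.11 and Psme4 -0.03. Apart from Psme3, whose standard error was 0.10, each value in these last 2 sentences was smaller than its standard error.

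High dose was then set against low dose; this comparison and the 2 before it share their arrays. Here 0 of 40 passed (0% of all genes tested), and 1 gene, Psmb7, had an unadjusted p under 0.05, or 2.5% of the set against 6.21% of all genes. The set was split evenly, with 19 genes higher and 21 lower and a median of -0.0153, while 77.2% of all genes were lower, with a median of -0.07. Without low dose replicate 2 the set's median was 0.071 and without low dose replicate 1 it was -0.1. Both high dose arrays lay below both low dose arrays in 7 members, or 17.5%, and in 37.3% of all genes. Above them lay 2 members, or 5%, Psmb8 and Psmb9, against 3.98% of all genes (41.3% in either direction). Both genes lay just above the array medians, with mean log2 levels of 8.01 and 7.98.

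Psmb7 differed most among the members. Its 2 low dose values, 10.26 and 10.29, lay above every other array, and the high dose values were 9.79 and 9.42. The log2 fold change was -0.67 (SE 0.14, limma unadjusted p = 7.63e-05, adjusted p = 0.448), or 1.59-fold lower, rank 5 from the lowest of 11743 genes. On the first date alone the difference was -0.49. With the date as a term it was -0.43 (limma adjusted p = 0.0823), and with RIN as a covariate -0.188 (limma adjusted p = 1). Control arrays do not enter this difference. Without control replicate 1 or control replicate 2 the log2 fold change was therefore -0.67 by construction, and only its spread could change. It was -0.686 and -0.655 without low dose replicate 1 or 2, and -0.854 and -0.486 without high dose replicate 1 or 2. Over all alternatives the log2 fold change ran from -0.854 to -0.188, and in some of them the gene passed. All 9 oligodendrocyte markers (median -0.34) and all 11 neuron markers (median -0.09) were lower at the high than at the low dose, as were 5 of 6 striatum markers (median -0.26), with 0 past the threshold with or without the date block. Their part in the Psmb7 value was not tested.

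After Psmb7 came Psmd7 at -0.21 and Psmd5 at -0.19, both apart from the low dose arrays, and at the upper end Psmd13 at 0.13, Psmd11 at 0.12 and Psmb3 at 0.10. Psme1 had -0.16 and Psmd14 -0.10, Psmc1 -0.09, Psme3 -0.07 and Psme4 -0.0063. The catalytic genes Psmb5 (0.02) and Psmb6 (0.04) and the inducible genes Psmb8 (0.02), Psmb9 (0.07) and Psmb10 (0.05) differed little, as did Psmd4 at 0.02.

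**Figure D2:**
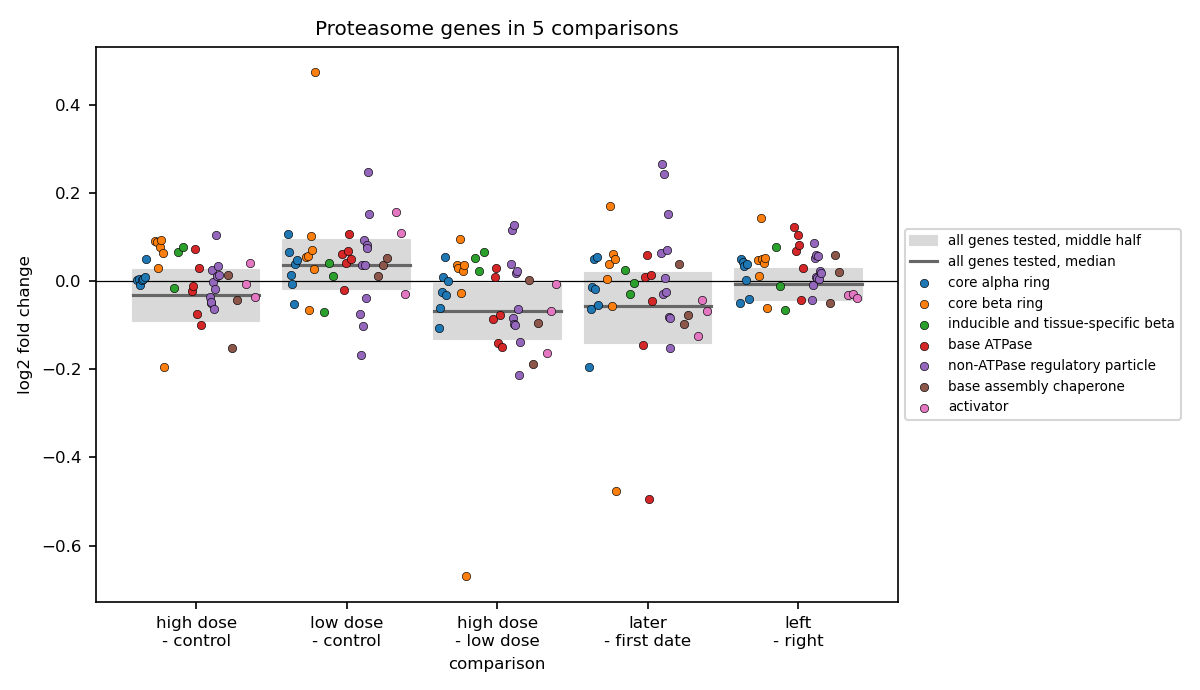
Log2 fold change of each of the 40 tested proteasome genes, coloured by role, in 5 comparisons; the grey box spans the quartiles and the grey line marks the median of all 11743 genes tested. The lone points are Psmb7 at 0.48 for low dose against control and -0.67 for high against low dose, and Psmb7 and Psmc4 at -0.48 and -0.49 for the later against the first date.

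The arrays were also compared by hybridization date, with dose group as a term. In this comparison 2 of 40 genes passed, both lower on the later date. That share was not above that of all genes tested, of which 6.97% passed, 5.73% as lower and 1.23% as higher. The 2 genes were Psmb7 and Psmc4, an ATPase of the base. Psmc4 measured 12.15, 12.00, 12.05 and 12.18 on the first date, in the control, the 2 low dose pools and the high dose pool. On the later date it was 11.76 in the control and 11.59 at the high dose. The later arrays lay below all 4 earlier ones. Its log2 fold change was -0.49 (SE 0.09, limma adjusted p = 1.41e-05), or 1.41-fold, with -0.39 in the controls and -0.59 at the high dose.

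Psmb7 had a log2 fold change of -0.48 (SE 0.09, limma adjusted p = 3.5e-05), or 1.39-fold lower, with -0.58 in the controls and -0.37 at the high dose. Its levels in order of RIN were 10.26 at RIN 9.1, 10.29 at 8.9, 10.09 at 8.7, 9.79 at 8.5, 9.42 at 8.2 and 9.51 at 7.9. Psmc4 was level on the 4 arrays with RIN 8.5 and above and lower on the other 2. With RIN as a covariate beside the date, neither gene passed: the difference was -0.318 for Psmb7 (limma adjusted p = 1) and -0.693 for Psmc4 (limma adjusted p = 0.503). Without control replicate 1 or control replicate 2 the Psmb7 value was -0.368 and no longer passed (limma adjusted p = 0.171 in each). Over all alternatives the limma adjusted p ran from 5.54e-06 to 1 for Psmb7 and from 1.88e-06 to 0.503 for Psmc4.

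**Figure D3:**
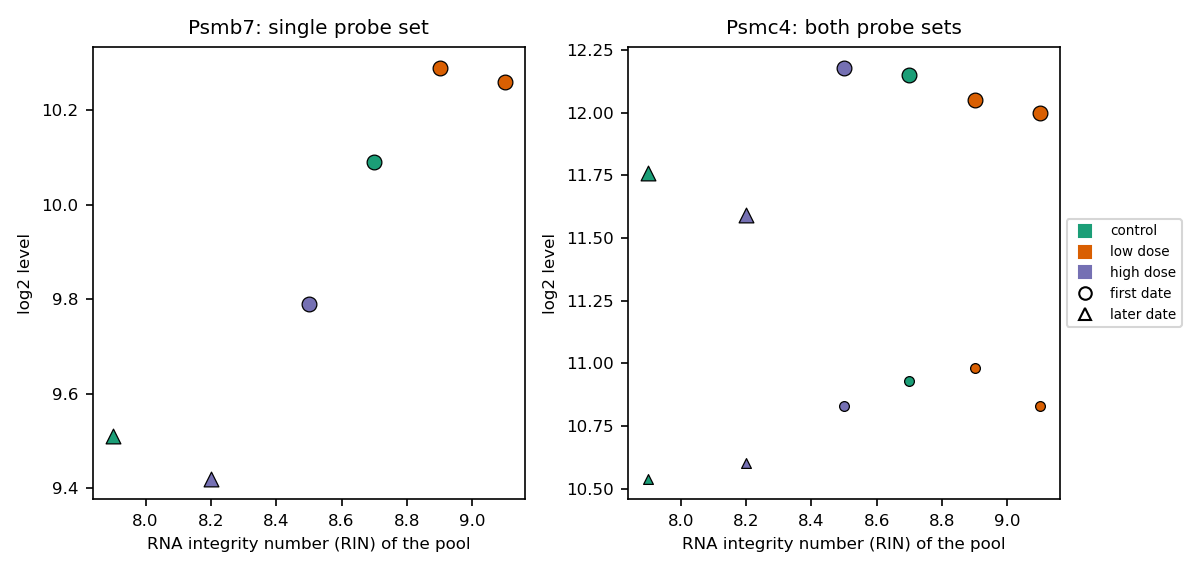
Log2 level of Psmb7 (left, 1 probe set) and Psmc4 (right, large markers for the highest-mean and small markers for the other probe set) against the RIN of each pool; colour gives the dose group, circles the first and triangles the later date. Psmb7 lies at 9.42 and 9.51 on the later arrays and at 10.26 and 10.29 on the low dose arrays, which have the highest RIN, while Psmc4 separates the dates at 11.59 and 11.76 against 12.00 to 12.18.

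Over the whole set the date differences were small, under 0.1 log2 in 30 of 40 genes or 75%, against 55% of all genes. The median was -0.0145 with 18 genes higher and 22 lower, while all genes had a median of -0.06 with 68.9% lower. In both dose groups 14 members were lower and 12 higher on the later date, against 45.7% and 15.8% of all genes (61.6% in either direction). The highest members were Psmd11 (0.27, limma adjusted p = 0.0544), Psmd13 (0.24, limma adjusted p = 0.0876) and Psmb3 (0.17). Psmd11 measured 11.96 and 11.99 on the later arrays and 11.64 to 11.77 on the earlier ones. It passed without a filter on dim probe sets, and with quantile normalization Psmd11, Psmd13 and Psmd4 passed as higher. Over all genes 1032 of 18193 passed without that filter and 1505 of 11743 with quantile normalization, in either direction. The other probe sets of Psmd11, Psmd13 and Psmd4 that passed the filter did not all share the difference. They had -0.19 and -0.1 for Psmd4, 0.05 and 0.06 for Psmd13, and 0.03, 0.28 and 0.08 for Psmd11.

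At the lower end Psma1, an alpha subunit, had -0.19, made up of -0.36 in the controls and -0.03 at the high dose. Psmd4 had 0.15, Psmc1 -0.14 and Psme1 -0.12. The catalytic genes Psmb5 and Psmb6 had 0.06 and 0.05, the inducible genes Psmb8, Psmb9 and Psmb10 -0.03, -0.0041 and 0.03, and Psmd14, Psme3 and Psme4 0.0078, -0.04 and -0.07. Oligodendrocyte markers moved with the date as well: 8 of 9 tested were lower, 3 passed as lower, and the mean level of the list was 11.22 and 11.30 on the later arrays against 11.52 to 11.72 on the earlier ones. In the lists of hippocampal field, neuron, astrocyte, neocortex and striatum markers 1 gene each passed as lower, in the choroid plexus list 1 as higher, and in the microglia list 1 in each direction. Their part in the Psmb7 and Psmc4 values was not tested.

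Probe sets of 1 gene did not always share the date difference. Besides the 40 probe sets that stood for the genes, 28 more passed the same filter. Of these, 5 were lower on the later date by more than 0.3 log2 and 1 was higher by more. The matching share over all probe sets was not counted. Both probe sets of Psmc4 were lower, by -0.49 and -0.31, whereas Psmb7 has 1 probe set. Psmc6 had -0.04 on its highest-mean probe set and -0.32 and -0.54 on the others. Psmd6, a lid subunit, had -0.08 and -0.54, and Psmb4 -0.06 and -0.38. The probe sets of Psme4 ran from -0.18 to 0.36. When all probe sets of a gene were averaged instead, 4 of 39 members passed as lower, Psmb7, Psmc4, Psmc6 (-0.303) and Psmd6 (-0.309). Over all genes 517 of 10812 passed with this average, in either direction.

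**Figure D4:**
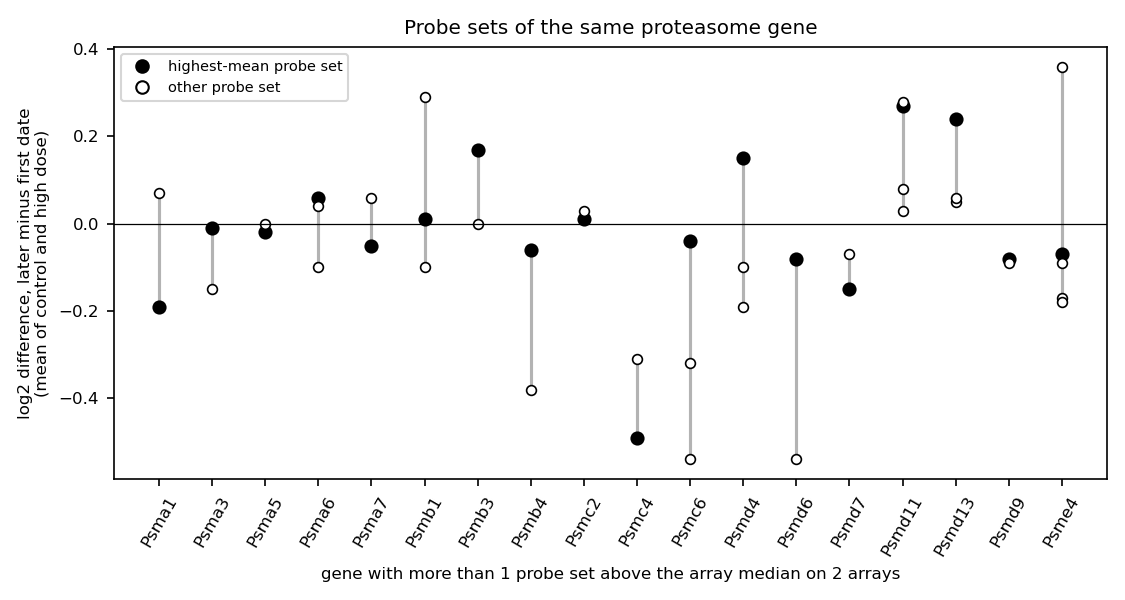
Log2 difference between the later and the first date (mean of the control and high dose differences) for each probe set of the 18 genes with more than 1 probe set above the array median on at least 2 arrays; filled points are the highest-mean probe sets. Psmc6, Psmd6 and Psmb4 have a filled point near 0 and open points at -0.54, -0.54 and -0.38.

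Left and right pools were compared with dose group as a term. No member passed (0% of all genes tested did), 0 members had an unadjusted p under 0.05 in limma, and 40 of 11743 genes did. The set's median was 0.03, with 28 genes higher on the left and 12 lower, against -0.0055 for all genes. Within the dose groups the medians were -0.06 in the controls, 0.17 at the low dose and -0.03 at the high dose, so the left pool was the higher one at the low dose, where it is low dose replicate 2. Psmd12, a lid subunit, was higher on the left in all 3 dose groups (0.09), the only member with the same sign in each. Of all genes, 3.88% were higher and 3.72% lower in each, 7.6% in either direction. Psmb3 (0.14), Psmc1 (0.12) and Psmc3 (0.11) had the highest values, and Psmb9 (-0.06), Psmb7 (-0.06) and Psma1 (-0.05) the lowest, all with a limma adjusted p of 1. For Psmb7 the 3 differences were -0.58 in the controls, 0.03 at the low dose and 0.37 at the high dose. In control and high dose pools, side and date change together in opposite order.

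The genes that feed the proteasome were read from fixed lists. Of the ubiquitin genes and activating enzymes only Uba6, an activating enzyme, had a tested probe set of its own. It measured 9.96 and 9.90 in the controls, 9.66 and 9.71 at the low dose and 9.60 and 9.67 at the high dose, so that all 4 treated arrays lay below both controls. Its log2 fold change was -0.29 at the high dose (SE 0.10, limma adjusted p = 1) and -0.24 at the low dose (SE 0.10, limma adjusted p = 1), and 0.0050 between the dates. The 2 dose comparisons share their controls.

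Of 10 tested shuttle factors and partners of the Vcp ATPase, which carry tagged proteins to the proteasome, 0 passed between dose groups. Between the dates Ubqln4 was the 1 that passed, lower by -0.42 (SE 0.09, limma adjusted p = 0.000495), with -0.63 in the controls and -0.20 at the high dose. Among the 13 regulators and bound factors, Ecpas, a scaffold that binds the assembled proteasome, was higher on the later date by 0.28 (limma adjusted p = 0.0378, or 0.168 with side as a term). Usp14, a deubiquitinase on the base, had -0.24 and Uchl5, another, -0.20, which did not pass. Sem1, the lid subunit outside the Psm names, had 0.14.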

How the data were processed

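Gene expression was measured on Affymetrix mouse genome arrays, 2 pools in each of 3 dose groups. The authors deposited log2 expression values of 45101 probe sets made with RMA in R 3.0.1, per the submitters' processing notes. Further RMA settings are unknown here, and the range of the values shows the log2 scale. Array intensities were not used here. Doses are per kg body weight in the labels' protocols; the series text omits the body weight and 1 label writes the unit otherwise.

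Probe sets were named from the platform annotation supplied with the values, with symbols updated through Entrez identifiers; 64 control probe sets were set aside and 34945 had 1 symbol. The test took the 11743 of 18193 genes that exceeded the array median on 2 or more arrays. It was limma's moderated test, two-sided (lmFit, eBayes; limma 3.58.1, R 4.3.3), and p-values were adjusted by Benjamini-Hochberg over these genes, with a threshold of 0.05. Dose groups were compared on all 6 arrays with no further term. Date and side were compared with dose group as a term; there limma's prior degrees of freedom were infinite, so all genes share 1 spread. The fits were tested on simulated data. Named were members past the threshold, the 3 highest and 3 lowest in each comparison, and a panel of catalytic, ubiquitin-handling and activator genes; others were chosen after their values were seen. The members and lists were chosen with earlier results of these data known. Alternatives were other gene summaries, filters, scalings, terms and left-out arrays. No 2 arrays held identical values.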

Additional observations from a re-analysis of the deposited data

How the results depend on the processing

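The number of proteasome genes past the threshold at the low dose against control, 0 as reported, was 1 with the trend and robust variance prior and 1 with the replicate block. For high against low dose, 0 as reported, it was 1 with the trend and robust prior, 1 with side as a term, 1 with the replicate block and 1 on the first date alone; the gene was Psmb7 each time (limma adjusted p with the replicate block 0.00876 and 2.85e-06), and the cause was not tested. For the later against the first date it was 2 as reported. It was 4 when probe sets were averaged per gene (517 of 10812 over all genes) and 5 after quantile normalization (1505 of 11743). With RIN as a covariate it was 0 (22 of 11743). Leaving out 1 array in turn gave 0 to 1 for each comparison between dose groups and 1 to 2 for the date. The set's median then ran from -0.03 to 0.044 at the high dose, from -0.041 to 0.131 at the low dose and from -0.1 to 0.071 between the doses. Replicate differences correlated over genes at 0.54 between control and high dose, whose replicate number equals the date, at 0.0765 between control and low dose and at 0.133 between low and high dose, so the numbers were not taken to pair the pools. The replicate block changed no other call of a member. Of 1324 values of named members under alternatives, 17 newly passed (Psmb7 13 times, Psmd11, Psmd13 and Psmd4), 4 no longer passed and 126 of genes that pass in neither case changed sign. Counts over all genes moved more: from 1 to between 0 and 178 at the high dose, from 5 to between 0 and 546 at the low dose, from 0 to between 0 and 152 between the doses, from 818 to between 22 and 1505 for the date and from 0 to between 0 and 17 for the side. In 55 of 88 fits the prior had infinite degrees of freedom. An alternative chosen after seeing the data, the date comparison on control and high dose arrays alone, gave 2 proteasome genes.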

Other observations

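The members left out of the tests were listed below the array median everywhere. Psma8 measured 7.07 and 7.16 in the controls, 6.93 and 7.06 at the low dose and 7.05 and 7.07 at the high dose. Psmb11 measured 6.87 and 7.02, 6.97 and 6.97, and 6.96 and 7.02 in the same order. For Psma8 both low dose arrays lay below both controls, while high and low dose overlapped and the upper high dose value equalled the lower control at this rounding. For Psmb11 all 3 dose groups overlap.

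Psme4, an activator with 6 probe sets, had the widest disagreement among its probe sets. At the low dose they ran from -0.39 to 0.05 relative to control among the 5 that passed the filter, and the highest-mean probe set had -0.03. Between the dates the same 5 ran from -0.18 to 0.36. The probe set with -0.39 and 0.36 was 1 of the dimmer ones, with a mean log2 level of 7.95, above the array median on 4 arrays.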
